A study of Mus musculus with 2 samples.

Results

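The wide accessible sites described here are peaks of 280 bp or more in replicate 1 of a kidney DNase-seq series that overlap a replicate 2 peak of 280 bp or more, taken from the longer of the pair of peak lists deposited for each library. They were chosen by their width in both libraries, and 4211 of the 125393 replicate 1 peaks met the rule. They were matched to 4101 of the 177001 replicate 2 peaks, since neighbouring members can share a partner. DNase-seq maps accessible chromatin from the places where the enzyme DNase I cuts DNA in nuclei. Both libraries came from kidney tissue of males of the strain B6CASTF1/J aged 25 days, which are first-generation offspring of a cross between the inbred strains C57BL/6J and CAST/EiJ. The labels give 1 group of 2 biological replicates with different animal numbers but a shared donor code, so no condition was compared and values are given for replicate 1 and then replicate 2. No treatment is named in the labels. How CAST/EiJ alleles were handled in the alignment to mm10, which is built from C57BL/6J, was not given in the sources used here.

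Most regulatory sites are accessible over about the length between neighbouring nucleosomes, where transcription factors take the place of the histones. Promoters at CpG islands, which are rich in C, G and the dinucleotide CpG, are accessible in many tissues and can be open over longer stretches. Factors such as CTCF, which holds the base of chromatin loops, bind short sites that are often accessible between well-placed nucleosomes. A bound factor can shield a few bases from DNase I inside an accessible site, and such a shielded stretch is called a footprint.

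The following sequences show the kinds of site that the values below turn on. They were read on the forward strand of GRCm38.p6, the assembly behind mm10, and capitals mark the bases inside replicate 1 footprints. Each was the highest peak of its kind of at most 300 bp outside annotated exons, by the geometric mean of its heights. The site above the start of Sde2, a gene for a splicing and genome maintenance protein, stands for the high wide promoter sites, at chr1:180850821-180851120 (8 and 7 footprints). The site in the Mrps9 gene, which encodes a mitochondrial ribosomal protein, stands for the wide promoter sites without a footprint in both libraries, at chr1:42851441-42851720, with its midpoint 348 bp inside the gene. The intergenic site at chr7:99151381-99151660 (nearest start Gm45185) is the highest distal site of this kind. The site in an intron of Cuedc1 at chr11:88164821-88165120 holds the sequence TGACTCA, a binding consensus of the AP-1 factors, at bases 62 to 68, with 2 of its bases in a footprint. The last sequence is no wide site but a comparison peak of 160 bp with Ckb as its nearest gene, at chr12:111668481-111668640, whose CTCF consensus match CCAGCAGGTGGC at bases 50 to 61 lay wholly in a footprint.
Sde2: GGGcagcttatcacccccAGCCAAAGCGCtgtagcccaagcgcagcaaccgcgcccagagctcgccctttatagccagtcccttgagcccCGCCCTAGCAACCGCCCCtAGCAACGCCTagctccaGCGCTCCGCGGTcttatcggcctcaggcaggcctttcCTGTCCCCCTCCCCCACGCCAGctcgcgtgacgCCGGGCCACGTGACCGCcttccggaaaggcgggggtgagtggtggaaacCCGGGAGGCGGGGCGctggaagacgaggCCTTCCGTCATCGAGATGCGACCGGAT
Mrps9: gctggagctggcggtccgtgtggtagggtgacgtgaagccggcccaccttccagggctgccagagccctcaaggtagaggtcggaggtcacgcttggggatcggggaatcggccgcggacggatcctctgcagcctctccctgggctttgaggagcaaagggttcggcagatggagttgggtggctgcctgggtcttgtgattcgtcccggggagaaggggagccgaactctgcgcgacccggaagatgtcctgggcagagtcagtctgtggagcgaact
Gm45185: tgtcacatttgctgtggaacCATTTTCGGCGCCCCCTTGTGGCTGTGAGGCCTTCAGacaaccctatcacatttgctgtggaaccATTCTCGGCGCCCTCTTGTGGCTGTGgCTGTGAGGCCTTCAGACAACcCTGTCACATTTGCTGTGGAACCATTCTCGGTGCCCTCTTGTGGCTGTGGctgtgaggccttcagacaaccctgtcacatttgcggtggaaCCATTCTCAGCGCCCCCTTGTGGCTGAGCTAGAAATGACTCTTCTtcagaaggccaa
Cuedc1 intron: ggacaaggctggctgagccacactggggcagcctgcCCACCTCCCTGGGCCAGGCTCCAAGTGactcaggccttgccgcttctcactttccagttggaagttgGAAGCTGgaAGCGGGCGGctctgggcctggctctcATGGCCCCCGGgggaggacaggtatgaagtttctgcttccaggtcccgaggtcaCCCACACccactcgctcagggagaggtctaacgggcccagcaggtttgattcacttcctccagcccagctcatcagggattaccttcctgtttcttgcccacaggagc
Ckb comparison: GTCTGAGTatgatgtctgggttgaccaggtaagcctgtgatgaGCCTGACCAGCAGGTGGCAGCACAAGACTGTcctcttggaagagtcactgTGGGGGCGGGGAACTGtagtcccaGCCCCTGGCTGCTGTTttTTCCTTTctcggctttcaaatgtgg

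Width itself is a description, since it chose the members. Median width was 340 bp in both libraries, with quartiles of 300 and 400 bp, against a median of 180 and 175 bp over all peaks. The widest member measured 1046 bp in replicate 1 and 920 bp in replicate 2. Peaks of 280 bp or more made up 7.17% of replicate 1 peaks and 6.45% of replicate 2 peaks, and the widths fell off without a gap. Of the 8985 wide peaks of replicate 1, 8743 overlapped some replicate 2 peak but only 46.9% overlapped a wide one. The widest replicate 2 partner of a wide replicate 1 peak had a median width of 260 bp. Of replicate 1 peaks of 160 to 200 bp, 2.54% had a wide partner. Just inside the threshold, the 1896 replicate 1 peaks of exactly 280 bp had a median height of 1.40, and 50.8% of them lay at promoters. Just outside it, the 2839 peaks of exactly 260 bp had a median height of 1.58, and 53.9% lay at promoters.

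**Figure D1:**
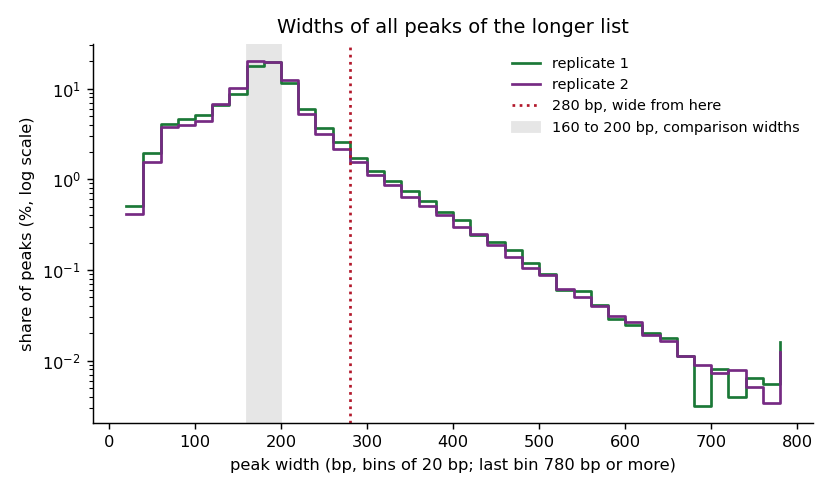
Share of peaks (%, log scale) in each 20 bp bin of peak width (bp) for replicates 1 and 2. The dotted line marks 280 bp, from which a peak counts as wide, and the grey band the 160 to 200 bp of the comparison peaks; both libraries fall off in the same way, to 1046 and 1000 bp.

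The deposited lists hold peaks that overlap each other, and this touches the widest sites. In replicate 1, 390 members (9.26%) overlapped another peak of their own list, and in replicate 2 350 (8.31%) did. The median width of these 390 and 350 members was 480 and 520 bp. Over both libraries 627 members were of this kind, and all members together covered 4112 separate intervals in replicate 1. All 16 members named below as the widest overlapped another peak of the same list in at least 1 library. Without such peaks, a setting chosen after seeing the data, 3584 members were left. The differences given below in promoter share, footprint density, CpG content and 280 bp windows with 2 or more annotated starts kept their direction there.

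Each wide site was set against 46218 shared peaks of 160 to 200 bp in both libraries, weighted so that their replicate 1 heights had the same spread over 10 height classes. A height is the deposited signal of a peak. Median heights of the members were 1.31 and 1.29, with quartiles of 0.863 and 2.66 in replicate 1 and of 0.820 and 2.62 in replicate 2. The weighted comparison peaks had a median of 1.31 in replicate 1 and 1.71 in replicate 2. Intervals given below are 95% intervals over peaks in each library separately, cover counting error only and say nothing of the spread between animals. Absolute depth is unknown. Low heights rose in steps that were 1.72 times as large in replicate 1 as in replicate 2.

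Wide sites lay at promoters far more often than narrower peaks of the same height. A midpoint within 1 kb of an annotated transcription start was found in 2370 of 4211 members (56.3%, exact 95% interval 54.8 to 57.8) in replicate 1 and in 2376 (56.4%, 54.9 to 57.9) in replicate 2. Comparison peaks of like height had 24.1% in both libraries, a difference of 32.2 percentage points (30.6 to 33.7) in replicate 1 and 32.3 (30.8 to 33.9) in replicate 2. The difference stood in each of the 10 height classes. In the lowest class 42.7% of members and 10.7% of comparison peaks lay at promoters, and in the highest class 95.02% and 84.6% did. Introns held 23.4% of members against 39.8% of comparison peaks, intergenic sequence 16.7% against 31.3% and exons away from promoters 3.56% against 4.80%, all in replicate 1. Replicate 2 gave 23.3% against 39.8%, 16.7% against 31.3% and 3.54% against 4.85%. Where the promoter class was drawn at 500 bp from a start, the difference was 23.1 and 22.7 percentage points.

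**Figure D2:**
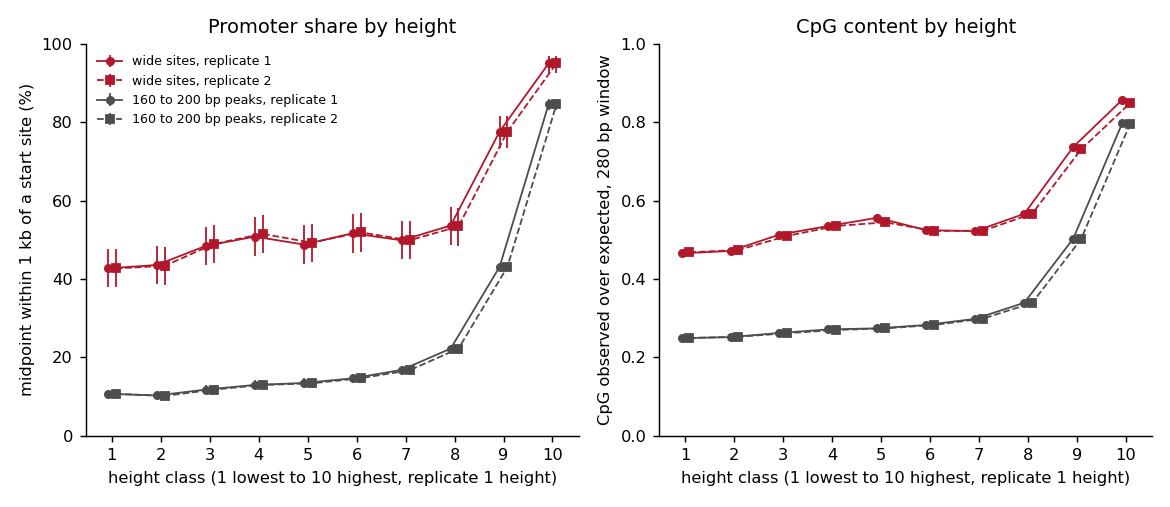
Left, share of peaks with a midpoint within 1 kb of a start site (%, bars exact 95% intervals), and right, mean CpG observed over expected in 280 bp windows, for wide sites (red) and 160 to 200 bp peaks (grey) in 10 classes of replicate 1 height. Wide sites lie above the comparison peaks in every class, from 42.7% against 10.7% to 95.02% against 84.6% for promoters.

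The sequence of the wide sites was rich in CpG, also where location was held alike. In windows of 280 bp on the midpoint, GC content was 61.8% and 61.3% in members against 52.6% and 52.5% in comparison peaks. CpG observed over expected, the count of CpG relative to that from the C and G content, was 0.576 and 0.573 against 0.354 and 0.353. Among promoter peaks it was 0.756 against 0.557 in replicate 1 and 0.750 against 0.556 in replicate 2. Among distal peaks, whose midpoints lay over 1 kb from all annotated starts, it was 0.344 against 0.255 and 0.345 against 0.255. These windows reach beyond the edges of the comparison peaks. Bases soft-masked as repeats took 7.12% and 7.09% of member windows against 11.2% in both libraries.

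The position at promoters moved with height in wide sites, and less far in comparison peaks. Of promoter members, 38.4% and 38.9% had a midpoint more than 200 bp downstream of the nearest start, against 28.3% of comparison promoter peaks of like height in both libraries. More than 200 bp upstream lay 12.7% and 13.5% of members against 20.1% in both. In replicate 1, the 1365 promoter members with a height below 2 had their median midpoint 301 bp inside the gene, and 56.3% lay more than 200 bp downstream, against 37.4% of comparison promoter peaks of that height. The 399 with a height of 10 or more had it at -92 bp, just upstream, and 4.26% lay more than 200 bp downstream, against 6.85%. Their median extent ran from -254 to 73 bp around the start, while comparison promoter peaks of that height ran from -123 to 59 bp. The median midpoint of comparison promoter peaks was at 1 bp for heights below 2 and at -32 bp for heights of 10 or more. In replicate 2, 56.4% of the 1467 low promoter members and 3.74% of the 374 high ones lay more than 200 bp downstream, against 38.0% and 7.34% of comparison promoter peaks.

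**Figure D3:**
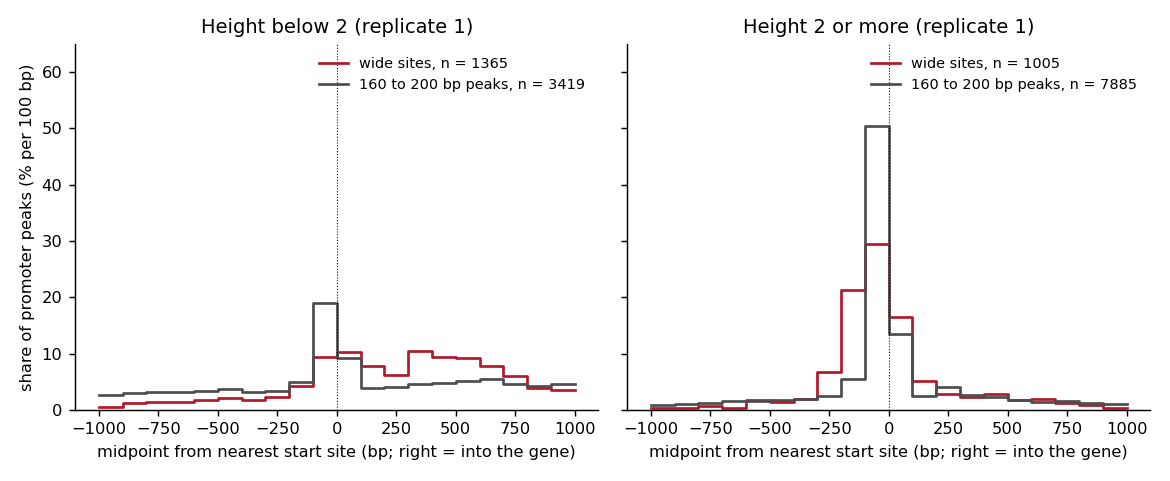
Share of promoter peaks (% per 100 bp) by the position of the midpoint from the nearest start site (bp, positive into the gene) in replicate 1, for heights below 2 (left; 1365 wide sites) and of 2 or more (right). Low wide sites (red) have a broad shoulder inside the gene, with their median at 301 bp, and high ones spread upstream of the comparison peaks (grey).

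The downstream sites were low and had few footprints. The 911 promoter members more than 200 bp downstream had a median height of 1.13 and 0.375 footprints per 100 bp in replicate 1, and 58.2% held none. The 1158 within 200 bp of the start had a median height of 3.55 and 1.27 footprints per 100 bp, and 14.3% held none. In replicate 2 the downstream sites had 0.679 and those at the start 1.65 footprints per 100 bp, and the shares without a footprint were lower, at 39.5% and 7.26%. A separate, higher peak stood within 200 bp of 34.2% of the downstream sites and of 13.8% of those at the start (37.5% and 15.1% in replicate 2). CpG observed over expected was 0.758 and 0.776 in these groups in replicate 1.

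Windows of 280 bp on the midpoint held several annotated starts less often at wide promoter sites than at comparison promoter peaks. In the 280 bp window, 11.6% and 11.5% of promoter members held 2 or more annotated starts, against 16.5% of comparison promoter peaks of like height in both libraries. The difference was -4.81 percentage points (-6.27 to -3.35) in replicate 1 and -4.98 (-6.43 to -3.52) in replicate 2. It was -1.47 where replicate 2 alone chose the peaks, -3.16 where replicate 1 alone did, and -10.2 with no weighting by height. Pairs of starts facing away from each other were found in 3.42% of members and 3.56% of comparison peaks in replicate 1, and the interval of that difference ran from -0.940 to 0.659 percentage points. The nearest start belonged to a protein-coding gene for 2035 of the 2370 promoter members in replicate 1 (85.9%). Comparison promoter peaks had 76.0% at like height and 81.4% without weighting. A start lay inside the peak itself, where width enters, at 47.6% and 46.0% of promoter members against 41.6% and 41.1%. A window with its midpoint more than 200 bp from the nearest start held none. Downstream this was so for 38.4% and 38.9% of members against 28.3%, and upstream for 12.7% and 13.5% against 20.1%. The part of position in the lower share of windows with several starts was not tested.

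Wide sites held more footprints in all but fewer for their length. Footprints come from the same reads as the peaks. A member held 2.94 and 4.56 footprints on average, against 2.14 and 3.09 in comparison peaks of like height. Like height refers to replicate 1. In replicate 2 the comparison peaks were higher, with a median of 1.71 against 1.29, so its footprint values are not at equal height. The median was 3 in replicate 1 and 5 in replicate 2, and the most in a member was 17 and 20. Per 100 bp, members held 0.830 and 1.29 footprints against 1.20 and 1.75, a ratio of 0.689 (0.670 to 0.707) in replicate 1 and 0.740 (0.726 to 0.755) in replicate 2. Footprints covered 9.79% and 19.1% of member bases against 17.6% and 34.1% in comparison peaks.

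Among the highest sites the densities were close. In the highest class, members had 2.04 footprints per 100 bp against 2.12 in replicate 1, and 2.22 against 2.09 in replicate 2. In the lowest class the density was 0.360 against 0.584 in replicate 1 and 0.777 against 1.30 in replicate 2. The relative gap in replicate 1 was widest in the fourth class, at heights from 0.940 to 1.09. The density there was 0.492 against 0.977 and 0.956 against 1.65. No footprint at all was found in 23.8% and 14.0% of members, against 8.00% and 1.496% of comparison peaks of like height. Over both libraries, 485 members (11.5%) had none in either, against 0.639% of comparison peaks of like height. Of these 485, 425 lay at promoters and 60 were distal, their median replicate 1 height was 0.949 and their CpG observed over expected was 0.752. The Mrps9 sequence shown above, all in lower case, is one of them, with heights of 1.41 and 1.45.

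**Figure D4:**
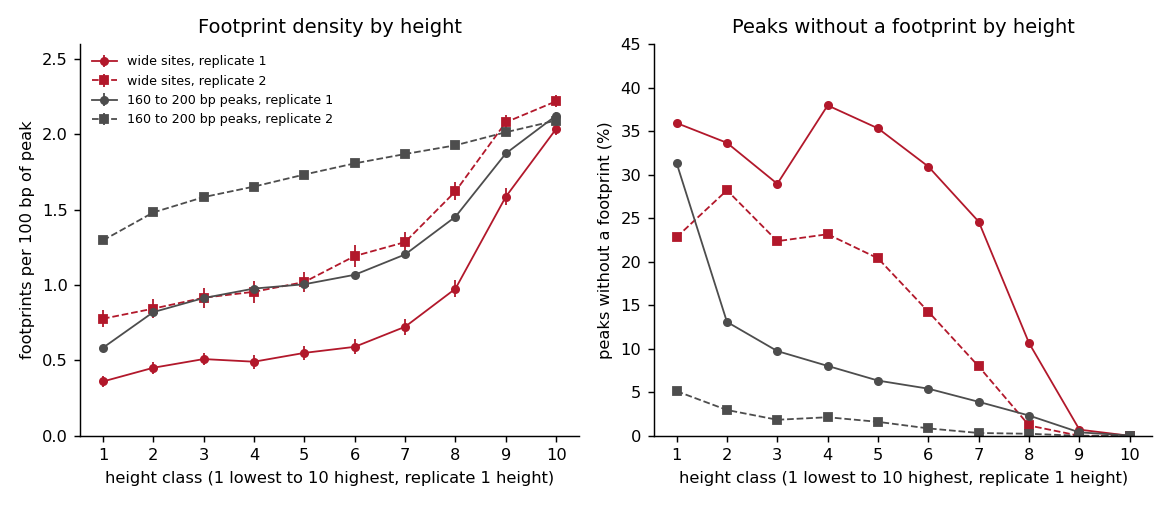
Left, footprints per 100 bp of peak (bars 95% intervals over peaks), and right, share of peaks without a footprint (%), for wide sites (red) and 160 to 200 bp peaks (grey) in 10 classes of replicate 1 height and both libraries. In the lower classes the wide sites have the lower density and more often no footprint; in the highest class they are at 2.04 and 2.22 against 2.12 and 2.09.

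The share of footprints in the central 50% of a peak showed no difference that held in both libraries. It was 59.5% in members against 62.1% in comparison peaks in replicate 1, and 55.2% against 49.9% in replicate 2, not weighted by height. By distance, however, footprints of comparison peaks gathered at the midpoint. In 10 bp bins of replicate 1, distal comparison peaks had 2.57 footprints per 100 bp from the midpoint and 0.860 from 40 bp beyond it. Distal members had 0.934 and 0.972. At promoters the values were 2.33 and 1.22 in comparison peaks and 0.911 and 1.02 in members. Single footprints were narrower in members, with a median width of 9 and 12 bp against 11 and 18 bp, also not weighted by height. Of member footprints in replicate 1, 68.7% overlapped a replicate 2 footprint, against 86.3% of those in comparison peaks. In replicate 2 the shares were 40.7% and 53.4%. These shares were not weighted by height either. Without weighting, comparison peaks were the higher set, with median heights of 1.58 and 2.01 against 1.31 and 1.29 in members.

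Matches to the CTCF consensus were rare in the wide sites. Motifs were searched as consensus sequences on both strands of the 280 bp windows, for 23 motifs. The CTCF consensus was found in 0.272% of the 1841 distal members in both libraries, against 9.42% of distal comparison peaks of like height and 6.37% and 4.80% of all distal peaks. The difference was -9.15 percentage points in both libraries (-9.53 to -8.76 in replicate 1). It held among the higher distal members, of which 4 of 923 had a match (0.433%) against 15.9% of comparison peaks. At promoters 0.253% and 0.338% of members had a match against 2.96% in both libraries. When 1 mismatch to the consensus was allowed, a setting chosen after seeing the data, 4.07% and 3.48% of distal members had a match against 28.3% in both libraries. Seen from the motif, 0.423% of the 5906 distal replicate 1 peaks with the exact consensus were 280 bp or wider, against 4.90% of those without.

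The distal site nearest to Gm45185, whose sequence is shown above, had heights of 14.4 and 23.8. It held no exact consensus but 4 places that differed from it by up to 1 letter. It was 1 of 4 distal members in replicate 1 with at least 2 such places (0.217%, against 1.44% of comparison peaks of like height), and in replicate 2 there were 6 (0.326% against 1.44%). This feature was singled out after the sequence was seen.

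The GC-rich motifs of the SP, KLF and TFAP2 factors were more frequent in wide sites at both kinds of location. GGGCGGG, the GC box bound by SP and KLF factors, was found in 43.1% and 41.0% of promoter members against 29.9% and 29.7%, and in 11.9% and 12.1% of distal members against 5.83% and 5.77%. Over all promoter peaks its share was 35.0% and 30.9%, and over all distal peaks 6.19% and 5.67%. The TFAP2 consensus GCCNNNGGC was found in 31.0% and 29.1% of promoter members against 20.2% and 19.9%, and in 17.7% of distal members in both libraries against 10.8% and 10.9%. Over all promoter peaks it was found in 24.2% and 22.1%, and over all distal peaks in 11.3% and 10.97%. Both differences were smaller in the central 160 bp. For the GC box at promoters the difference of 13.2 and 11.4 percentage points became 3.25 and 2.92, and at distal sites that of 6.07 and 6.34 became 2.76 and 2.27. For TFAP2 that of 10.8 and 9.22 at promoters became 5.39 and 4.52, and that of 6.82 and 6.77 at distal sites became 3.11 and 2.31. The intervals of all these differences lay above 0. GC content of the windows moved with these shares, at 66.6% against 57.9% for promoter and 55.7% against 49.9% for distal peaks in replicate 1, and its part in them was not tested.

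Other motifs were less frequent in wide promoter sites. CRE, TGACGTCA, the site of CREB and ATF factors, was in 0.970% of promoter members against 2.45% and 2.44%, with 1.85% and 1.64% over all promoter peaks. AP-1, TGACTCA or TGAGTCA, the site of FOS and JUN dimers, was in 2.70% and 2.74% against 4.41% and 4.47%, with 3.63% and 3.87% over all promoter peaks. The NRF1 motif was in 4.30% and 4.09% of promoter members against 5.34% and 5.37%. The ETS consensus CCGGAAGT was in 2.78% in both libraries against 3.88% and 3.91%. Of the 23 motifs, 2 were more frequent and 10 less frequent at promoter members with intervals off 0 in both libraries. At distal members 4 were more and 5 less frequent.

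At distal sites AP-1 and TEAD motifs were more frequent in the wide ones. AP-1 was in 9.13% and 9.34% of distal members against 6.52% and 6.50%, and 6.73% and 6.88% of all distal peaks held it. In the central 160 bp, however, AP-1 was in 4.89% of members against 4.20% in replicate 1, and the interval of that difference ran from -0.318 to 1.70 percentage points. In replicate 2 it ran from -0.210 to 1.84. The TEAD consensus GGAATGT, bound by the factors of the Hippo pathway, was in 7.44% and 7.33% of distal members against 5.17% and 5.18%, with 5.49% and 5.67% over all distal peaks. It kept its difference in the central 160 bp, at 5.05% against 3.19% in replicate 1. HNF4, a main factor of the proximal tubule with the consensus CAAAGTCCA or CAAAGTTCA, was in 2.17% and 2.34% of distal members against 2.34% in both libraries. The interval of its difference ran from -0.852 to 0.524 percentage points in replicate 1. Over all distal peaks it was found in 2.15% and 2.09%.

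**Figure D5:**
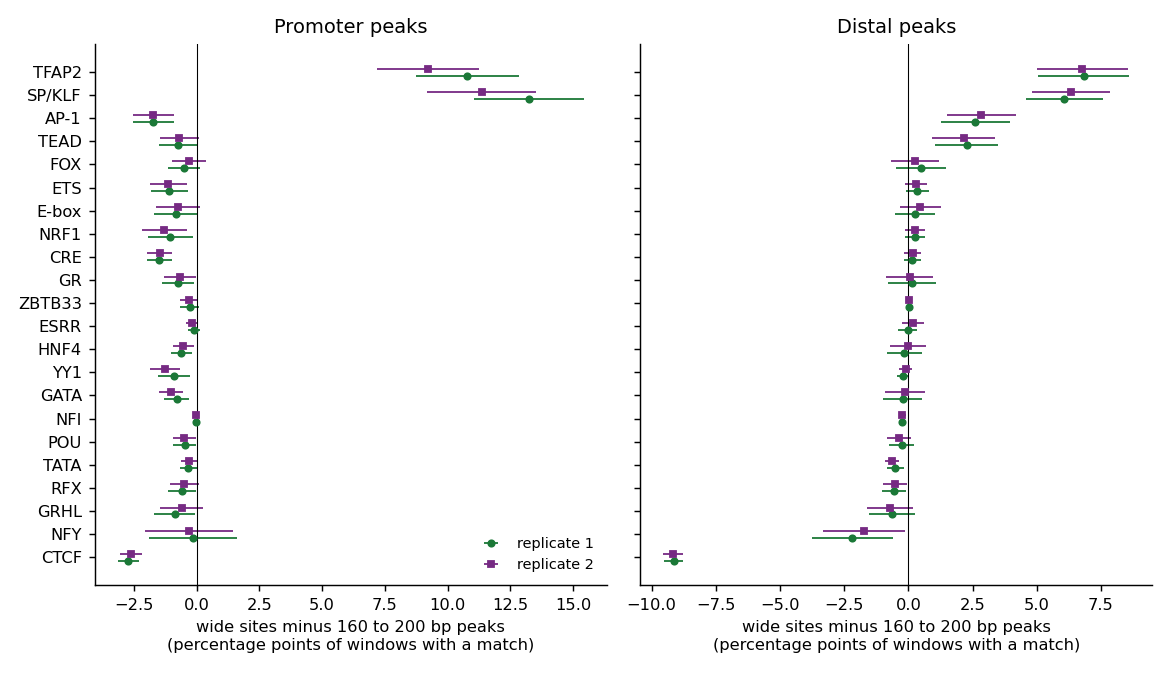
Wide sites minus 160 to 200 bp peaks of like height in the share of 280 bp windows with a motif match (percentage points, bars 95% intervals over peaks), for consensus motifs at promoter (left) and distal (right) peaks in replicates 1 and 2. CTCF is at -9.15 in distal peaks, and the GC-rich SP/KLF and TFAP2 motifs lie to the right in both panels.

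Wide sites often stood in longer accessible stretches. The measures in this paragraph rest on the same cut counts as the widths and are descriptions. A separate peak lay within 200 bp of 32.5% and 36.0% of members, against 10.6% and 13.2% of comparison peaks of like height, and a higher one within 200 bp of 18.0% and 20.3% against 2.98% and 3.01%. The unbroken run of bases with a deposited false discovery rate below 0.05 around a member was 917 and 1040 bp long on average, against 391 and 455 bp. These runs include the peak itself. Beyond its edges they held 553 and 675 bp on average, against 213 and 278 bp. Inside the peak, the false discovery rate had 2 or more separate maxima in 9.52% and 10.5% of members, against 0.125% and 0.0579% of comparison peaks. A longer peak has more room for maxima at least 100 bp apart, so width itself enters this contrast. In the stricter list of the same library, 95.1% and 98.5% of members overlapped a peak, close to the 90.8% and 98.0% of comparison peaks of like height. At least 2 stricter peaks were held by 8.81% and 8.19% of members against 0.0262% and 0.0163%, and width enters this contrast as well.

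Heights of both sets were also compared between the libraries. On the log2 scale, height in replicate 2 over that in replicate 1 had a median of -0.04 in members (SD 0.40) and 0.25 in comparison peaks of like height (SD 0.49). Both sets were classed by replicate 1 height. With classes taken from replicate 2 heights, the ratio of footprint densities was 0.746 and 0.779.

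The 6 highest promoter members by the geometric mean of both heights reached 27.5 to 33.0 in replicate 1 and 31.4 to 40.8 in replicate 2. Acin1, which encodes a nuclear protein of the splicing machinery, had the highest, at chr14:54686601-54686880, with heights of 33.0 and 40.8, a width of 280 bp in both libraries and 6 footprints in each. Sde2 had 32.3 and 32.0. L3hypdh, an enzyme of hydroxyproline breakdown, had 27.5 and 37.2 over 400 bp in both libraries, with 10 footprints in each. The non-coding 1700096K18Rik had 31.0 and 32.4. Larp1b, for an RNA-binding protein of the La family, had 29.6 and 31.4, and Gpr155, for a lysosomal membrane protein, had 28.4 and 31.7. All 6 held the GC box, none held the CTCF consensus, none overlapped another peak of the list, and 5 had midpoints upstream of the start.

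The 8 widest promoter members were low by comparison, at 0.376 to 3.55 in replicate 1 and 0.417 to 2.05 in replicate 2, and none had its midpoint upstream of the start. Zbtb14, a zinc finger repressor, led by mean width, with 720 and 780 bp at chr17:69383181-69383900, heights of 3.55 and 2.05 and 7 footprints in each library. Arnt2, a partner of bHLH-PAS factors, had 1046 bp in replicate 1 but 400 bp in replicate 2. Clec14a, a membrane protein of endothelial cells, had 800 and 620 bp with 7 and 11 footprints. Prickle1, of the planar cell polarity pathway, had 720 and 660 bp with 0 and 1 footprints. Cpeb3, a regulator of mRNA translation, had 660 and 720 bp, also with 0 and 1. B4galt2, a galactosyltransferase, had 480 and 920 bp, and Zfpm2, a cofactor of GATA factors, had 719 and 660 bp. The start of the non-coding 9530052E02Rik, inside the Irs2 gene, had 800 and 600 bp.

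Among distal members, the 6 highest reached 14.4 to 25.2 in replicate 1 and 18.9 to 23.8 in replicate 2, and 4 of them held the GC box. The highest by that mean lay in an exon of the antisense transcript A430078I02Rik at chr6:86472221-86472520, with heights of 25.2 and 21.9, a width of 300 bp in both libraries and CpG observed over expected of 1.06. The others lay nearest to Gm49539 (22.9 and 20.1), Trappc9 (20.5 and 22.0), Fstl3 (18.3 and 20.4), Gm45185 and 1700025H01Rik (15.5 and 18.9). Fstl3 encodes a secreted activin inhibitor, and its site lay in an intron of the gene, 3029 bp from the start.

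The 8 widest distal members ranged from 0.658 to 1.86 in height in replicate 1 and from 0.527 to 1.77 in replicate 2. The widest, upstream of Igf2bp3, an RNA-binding protein gene of fetal tissues, had 820 and 620 bp at chr6:49217501-49218320, heights of 0.897 and 0.830 and CpG observed over expected of 1.00. Those in exons of Tnrc18 (740 and 660 bp) and Irf2bpl (660 and 640 bp) had CpG values of 0.918 and 0.835. The intergenic site nearest to Gm26228, at 740 and 620 bp, had 0.0949, and the site nearest to 2900041M22Rik, at 600 and 694 bp, had 0.254. Sites in introns of Sema6a (840 and 460 bp) and Smc4 (360 and 920 bp) were also among them.

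Counted by gene, 1889 of 21911 protein-coding genes (8.62%) had a member within 500 bp of a start. Of the 14286 with any shared peak there, 13.2% had one. In 901 of the 1889 genes (47.7%) the highest shared promoter peak was another peak than the wide member. As a check of the labelled tissue, shared promoter peaks were counted in lists of kidney cell genes, beside 14286 of 21911 protein-coding genes. They stood at 31 of 32 proximal tubule, 12 of 13 loop of Henle, 13 of 14 distal convoluted tubule and 15 of 20 collecting duct genes. Podocyte genes had 12 of 13, endothelial 16 of 16 and stromal 11 of 14, but immune genes only 3 of 14. Among cells that the tissue should lack, 3 of 18 hepatocyte, 4 of 18 muscle, 3 of 11 germ cell and 5 of 22 other lineage genes had one. Of 17 neuron genes 9 had one.

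Of 16 heat shock and chaperone genes, 8 had a member (53.3% of the 15 with a shared promoter peak, beside 13.2% over all such genes), although Hspd1 and Hspe1 share a promoter and a single site. Hspa8, the constitutive HSP70, had heights of 25.7 and 21.7, Dnajb9 of the endoplasmic reticulum 21.0 and 19.7, the Hspd1 and Hspe1 promoter 18.8 and 17.3, and Hsp90b1 17.5 and 18.2. At Hsp90aa1 and Dnaja1 the wide site was a low one of 0.974 and 0.899 and of 2.57 and 2.03, while the highest shared promoter peak had 24.0 and 22.5 in replicate 1. Hspa5, the HSP70 of the endoplasmic reticulum, had 17.3 and 21.6.

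Of 19 clock genes, all with a shared promoter peak, 8 had a member (42.1%, beside 13.2% over all such genes). The sites of 6 of these genes were high. Per3 had heights of 21.7 and 21.2, Nr1d2 20.1 and 17.0, Per1 16.9 and 23.6 (beside a higher one of 19.8 in replicate 1) and Dbp 15.9 and 20.8. Arntl, which encodes BMAL1 of the activating arm, had 13.8 and 13.5, and Tef had 12.3 and 12.8 beside a higher promoter peak of 29.5. Rora had 1.38 and 1.07 beside a higher peak of 7.64, and Npas2 0.744 and 0.571 beside one of 0.803.

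Of 30 transcription factors of the kidney, 8 had a member (27.6% of the 29 with a shared promoter peak, beside 13.2% over all such genes). Pax2, needed for nephron formation, had a site of 560 bp in both libraries, with heights of 3.68 and 2.93 and 8 and 13 footprints. Irx3 had 4.81 and 3.55, Irx2 3.51 and 3.25, and Maf, over 580 and 740 bp, 2.29 and 1.40. Higher promoter peaks of 6.84 and 6.61 stood at Irx3 and Maf in replicate 1. Esrrg and Tfap2a were among the others. Of 13 podocyte genes 4 had a member, 33.3% of the 12 with a shared promoter peak. They were Vegfa (7.33 and 6.03, beside a higher promoter peak of 11.2 in replicate 1), Magi2 (2.48 and 2.08), Synpo (1.61 and 1.18, beside one of 2.24) and Plce1 (0.803 and 0.472).

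Of 32 proximal tubule genes 3 had a member, 9.68% of the 31 with a shared promoter peak and near the 13.2% over all such genes. They were the glucose transporter Slc5a1 (1.45 and 1.36), the organic anion transporter Slc22a6 (1.32 and 0.914) and the bicarbonate transporter Slc4a4 (0.658 and 0.497, beside a higher promoter peak of 2.73 in replicate 1). In the loop of Henle list 1 of 13 genes had a member, Sostdc1 (8.33% of the 12 with a shared promoter peak). None of 14 distal convoluted tubule and 20 collecting duct genes did. The endothelial list had Erg alone of 16, all with a shared promoter peak (6.25%), and the stromal and smooth muscle list none of 14. The hepatocyte, neuron, muscle, germ cell, immune and other lineage lists had none. A shared promoter peak of any width was present at 13 of the distal convoluted tubule, 15 of the collecting duct and 11 of the stromal genes. At the 13.2% over all such genes, lists of this size would hold few members. The lists with none were therefore not read further.

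Among Hox genes, which set position along the body axis, 5 of 23 in paralog groups 1 to 8 had a member and none of 16 in groups 9 to 13, of which 8 had a shared promoter peak. The first are 25% of the 20 with a shared promoter peak, beside 13.2% over all such genes, and 1 of the 8 in the second group would already be close to that share. Hoxb7 had 2.53 and 2.15, Hoxc5 1.77 and 1.53, Hoxa7 1.64 and 1.42, Hoxb3 1.55 and 1.12, and Hoxa5 1.19 and 0.994 over 900 and 380 bp. The highest shared promoter peak was another one of 8.31 at Hoxb7, 2.03 at Hoxc5, 12.2 at Hoxa7 and 9.70 at Hoxa5 in replicate 1. Of 18 housekeeping genes, all with a shared promoter peak, 5 had a member (27.8%). Eef1a1 (12.6 and 9.47) was highest, and among the others were Ywhaz, Ppia and B2m. At these last genes another promoter peak was higher, at 17.2, 22.1 and 9.47 in replicate 1. Of 24 immediate early genes, all with a shared promoter peak, 4 had a member, which is 16.7% and near the 13.2% over all such genes. Btg2 (19.3 and 14.0) and Klf10 (17.2 and 13.5, beside a higher promoter peak of 18.9 in replicate 1) were high. Lower were Myc (2.82 and 2.92) and Ier2 (1.16 and 1.01). The last 2 stood beside higher promoter peaks of 3.91 and 12.0 in replicate 1.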

How the data were processed

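DNase-seq of 2 kidney libraries was used as deposited on mm10, per the labels. The authors deposited, for each library, a pair of peak lists whose signal column (height) was used here, footprints, and the false discovery rates (q-values) of the cut rate where below 0.05. The files' descriptions do not tell the peak lists apart, and the longer was used; callers, versions and scaling of heights: not given in the sources used here. Locations came from GENCODE M21 basic transcripts and sequence from GRCm38.p6, with Python 3.11.15, numpy 2.4.6 and pandas 2.3.3. A footprint belonged to the peak that held its midpoint, and a shared peak overlapped by at least 1 bp. Maxima were at least 100 bp apart with a dip of 20%. Shares and means of comparison peaks were weighted to the members' 10 height classes, and the weighting was tested on simulated data. No p-value was computed, since both libraries form 1 group and peaks are not replicates. The 8 widest and 6 highest promoter and distal members were named by the nearest start. List genes were matched to a member within 500 bp of a start of the gene. Up to 4 genes a list with the highest member were named, and further list genes were named after their values were seen. At Magi2, Irx2, Hoxc5, Dnajb9 and Hspd1 the start of another gene was nearer. Sequences on chromosome 18 were not shown, and some members that the rule names are not reported here. The members, 20 gene lists and motifs were chosen with earlier results of these data known. Alternatives for width, overlap, peak list, comparison set, height classes, annotation, footprint counting and motif window are given under the dependence on processing.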

Additional observations from a re-analysis of the deposited data

How the results depend on the processing

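The differences from comparison peaks in promoter share, footprint density, CpG content and 280 bp windows with 2 or more annotated starts kept their direction. This held under each alternative run for them, with intervals that leave out no difference in each library used. The number of members was 2113 at 320 bp or more and 2663 in the stricter list, and ranged from 8985 to 11410 where 1 library alone chose them. The promoter share of members, a mean of 56.4% over both libraries, moved by more than the small spread between the libraries. It was 55.4% at 260 bp or more, 60.8% at 320 bp or more, 55.5% with 50% reciprocal overlap, 66.0% in the stricter list, 56.0% on autosomes only, 60.5% with all transcripts, 42.0% with starts within 500 bp, 55.3% without peaks that overlap another of the same list (chosen after seeing the data), and 47.6% to 52.4% where 1 library alone chose the members. The cause of these shifts was not tested beyond what each setting changes. In the central 160 bp the AP-1 difference at distal sites fell to 0.755 percentage points with intervals that include 0. The depth of the libraries is unknown, and its part in the footprint counts was not tested: members held 2.94 footprints in replicate 1 and 4.56 in replicate 2. No paired analysis was possible because both libraries form 1 group.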

Other observations

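Some genes had several wide sites, counted by the nearest start. The 4211 members had 3543 nearest genes, of which 3006 had 1 member, 93 had at least 3 and 8 had at least 5. Irf2bp2, which encodes a transcriptional corepressor, had 6 over 71.6 kb, from a promoter site of 18.4 and 20.7 to sites of 1.37 to 2.10 in replicate 1. Its relative Irf2bpl also had 6, over 20.8 kb, with heights from 1.66 to 4.85 in replicate 1. Tns1, a focal adhesion protein, had 6 over 60.8 kb, none of them at a promoter, with heights of 2.34 to 6.67 and 2.10 to 6.81. Gprc5c, a G protein-coupled receptor, had 6 over 22.1 kb, some of which overlap each other, with heights of 2.33 to 4.40. Trim8, Sulf2, Tnrc18 and Zfp503 had 5 each, and those of Zfp503 lay within 8.22 kb. The number of all replicate 1 peaks differed between the genes, at 75 for Tns1, 25 for Irf2bp2, 16 for Gprc5c and 11 for Irf2bpl. For Trim8 it was 31, for Sulf2 and Tnrc18 25 each and for Zfp503 20. These genes were chosen after their counts were seen.

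Overlapping peaks within the longer deposited lists were found on 19 chromosomes in each library but not on chromosome 1. Replicate 1 had 560 such pairs and replicate 2 had 757. Chromosome 7 had 50 and 46 pairs among 7824 and 10843 peaks, while chromosome 1 had 0 among 8095 and 11459 peaks. The stricter lists had 341 and 447 pairs, with 0 on chromosome 1 in each. On the X chromosome lay 85 members, 2.02% of them beside 2.62% of all replicate 1 peaks, and none lay on Y.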
